A study of Homo sapiens with 58 samples.

Results

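The genes described here encode proteins that hepatocytes secrete into the blood: the carrier proteins albumin (ALB), alpha-fetoprotein (AFP), transferrin (TF) and transthyretin (TTR), the 3 fibrinogen chains (FGA, FGB, FGG), the protease inhibitor alpha-1-antitrypsin (SERPINA1) and fetuin-A (AHSG). The members are all peaks of RNA crosslinked to the RNA-binding protein HuR that carry 1 of these 9 gene names, 192 of 387214 peaks (0.0496%). They hold 20482 of 7887093 tags (0.26%), a tag being 1 sequenced crosslinked fragment. Peaks carry 8 of the 9 names: 50 AFP, 44 ALB, 40 TF, 16 FGB, 16 FGG, 14 FGA, 10 SERPINA1 and 2 AHSG. TTR is not analysed here, and AHSG, with 13 tags in all libraries together, is too sparse for statements on single groups.

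HuR, encoded by ELAVL1, is an RNA-binding protein that binds stretches rich in uridine, chiefly in 3'UTRs and introns, and is known for stabilising the mRNAs it binds. It is mostly nuclear, shuttles to the cytoplasm and joins stress granules, the assemblies of stalled mRNAs that contain G3BP1. Plasma protein mRNAs are among the most abundant of hepatocytes and are translated at the endoplasmic reticulum, and AFP, the fetal counterpart of albumin, is a marker of hepatocellular carcinoma.

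The cells were Huh-7.5, a hepatocellular carcinoma line, in 58 HuR CLIP-seq libraries. The wild-type line, without an APEX reaction, was separated into cytoplasm and nucleus, with 3 libraries per fraction and treatment, either mock or 0.5 mM sodium arsenite for 45 min; all 12 belong to 1 library set of their own. Lines that carry APEX, a peroxidase that biotinylates its surroundings, fused to a nuclear signal (APEX-NLS), a cytoplasmic signal (APEX-NES) or G3BP1 (APEX-G3BP1) gave the other libraries under the same treatments, all with an APEX reaction. Input libraries had the HuR immunoprecipitation alone (2 per treatment for NLS and NES, 4 mock and 5 arsenite for G3BP1). Enriched libraries also had a streptavidin capture (4 per treatment for NLS and NES, 6 mock and 7 arsenite for G3BP1). All cells were crosslinked with UV at 400 and 200 mJ/cm2. The labels do not say that replicates are separate cultures, so the p-values measure the spread between libraries, which may be technical. They also do not say how many clones each APEX line comes from.

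Depth, as tags in peaks, was 235471 to 673322 per fraction library, 1353 to 484305 per input and 519 to 86419 per enriched library, so that 14953 of the member tags come from the 12 fraction libraries, 4533 from inputs and 996 from enriched libraries. The unit of level is CPM, counted per 1000000 of the library total that the authors divided by; 1 tag was worth 0.568 to 1.46 CPM in the fractions and up to 214.5 CPM in the shallowest enriched library. Of the hepatocyte transcription factors, HNF4A had fraction group means of 88.9 CPM (nuclear mock) to 370.4 CPM (cytoplasmic mock), and FOXA1, FOXA2, CEBPA and NR1H4 also had peaks, with group means between 2.16 and 63.3 CPM. Of 4 endothelial and 4 stellate cell or fibroblast genes, 3 had peaks (up to 1.73 and 1.60 CPM summed), and KDR, CDH5, COL1A1, COL1A2 and DCN had none. Of 4 biliary genes SOX9 had group means of 61.0 (nuclear mock) to 207 CPM (cytoplasmic mock) and EPCAM 2.93 to 3.31, and KRT7 and KRT19 had no peak. Of 4 leukocyte genes PTPRC and LYZ had peaks (2.40 to 21.1 CPM summed), and CD14 and CD68 had none. LYZ averaged 18.1 CPM in cytoplasmic mock and 1.09 to 4.12 CPM in the other fractions. SOX9 and LYZ thus had different means in the fractions, with no test made, and their part in the results was not tested. CLIP tags follow both the amount of an RNA and how often HuR is crosslinked to it, and these cannot be told apart in the values used here.

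The sequences used here hold the letters of 3 member peaks, all in 5'UTRs, shown because the AFP peak lies just before the member peak with the most tags. They are the peaks of AFP at chr4:73436223-73436243 (90 tags), ALB at chr4:73404303-73404323 (24 tags), both on the plus strand, and FGA at chr4:154590704-154590724 (9 tags), on the minus strand, read 5′ to 3′ as DNA from RefSeq sequence of build GRCh38.p14, with runs of at least 2 T in capitals.
AFP: tgtgcTTccaccactgccaat
ALB: gtcaaccccacacgccTTTgg
FGA: gagtgctcctcaggagccagc
Each line shows the 21 bases from the listed start to the listed end. Whether starts count from 0 or 1 is not given in the sources used here; if from 0, the first letter printed for AFP and ALB and the last for FGA lie outside the peak. T made up 28.6%, 19.0% and 14.3% of the 21 bases (25%, 20% and 15% of the 20 that remain if starts count from 0), against 20.8% over the first 21 bases of 35116 RefSeq gene starts. The motifs TTTTT and ATTTA, searched on the transcribed strand, are not in these 3 windows; they are in 1.56% and 0.92% of those gene starts.

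Coding sequence (CDS) and 3'UTR held most of the members' tags. The table gives each peak 1 class: 37 member peaks were 3'UTR with 29.0% of the member tags, 34 were CDS with 40.3%, 91 were intron with 20.5%, 4 were transposable element (TE) with 8.16%, 17 were non-coding RNA with 0.859% and 8 were 5'UTR with 1.12%; 1 AHSG peak is in the table's class Other. Over all peaks of the table the CDS class made up 0.676% of peaks and 0.708% of tags, 3'UTR 23.8% and intron 41.8% of tags. The CDS share of the members is mostly AFP: its 16 CDS peaks held 7490 of the 8254 CDS tags of the members. All TE peaks lie in AFP introns and all non-coding peaks carry the name TF. The class is set by priority, so that 17 of the 37 peaks called 3'UTR also carry a CDS label, among them 9 of 11 in ALB, 2 of 3 in AFP and all 3 in SERPINA1, while none of the 6 in FGB or the 3 in FGA does.

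The highest single peak of 20 nt held between 20.2% (FGA) and 45.8% (ALB) of a gene's tags, AHSG aside. In AFP the peak at chr4:73436298-73436318, labelled both CDS and intron, lies 87 bases from the RefSeq gene start. With CDS as its class, it held 5442 of 13735 tags (39.6%). It was the highest of the 2619 CDS peaks of the table and held 9.75% of all CDS tags. The AFP peak at chr4:73448901-73448921, labelled TE and intron and 12690 bases from the start, was likewise the highest of 18168 TE peaks, with 1283 tags. In ALB the peak at chr4:73421157-73421177, labelled 3'UTR and retained intron and 316 bases before the RefSeq gene end, held 1732 of 3784 tags (45.8%). The fibrinogen genes, neighbours on chromosome 4, had their highest peaks in the 3'UTR, at chr4:154570831-154570851 in FGB (392 tags), chr4:154604286-154604306 in FGG (171 tags) and chr4:154583701-154583721 in FGA (74 tags). TF had its highest peak in the CDS class, at chr3:133774876-133774896 (282 tags, 33.1% of the gene and the 10th of the CDS peaks), also labelled intron and retained intron. SERPINA1 had its highest peak in the 3'UTR, at chr14:94378501-94378521 (76 tags). Most member peaks were far lower: the median peak held 86.5 tags in AFP, 35.5 in ALB, 31.5 in FGB and between 6.5 and 17.5 in the other genes.

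**Figure D1:**
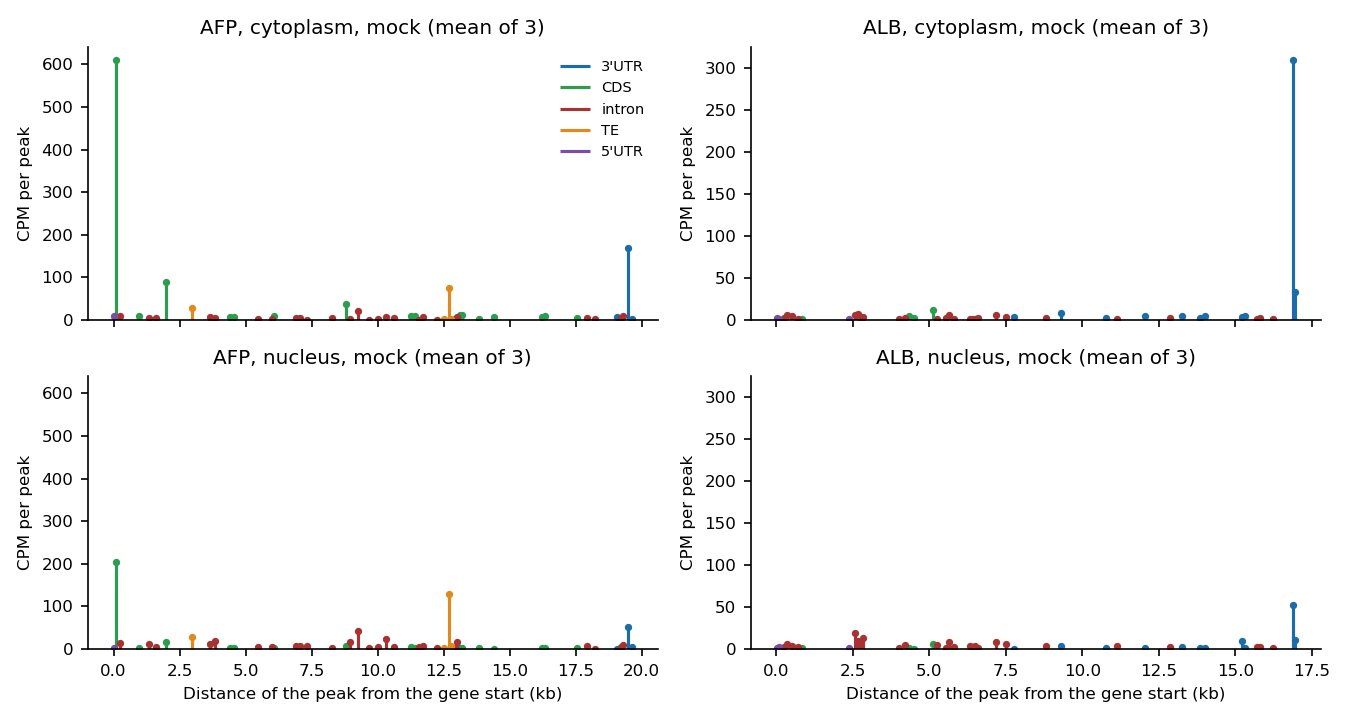
Mean CPM of each AFP and ALB peak (3 libraries) against its distance from the gene start in kb, in the cytoplasmic (top) and nuclear (bottom) fraction of mock-treated cells, coloured by annotation class. In the cytoplasm the first AFP coding peak stands at 610 CPM and the ALB 3'UTR peak at 310.03 CPM; in the nucleus they stand at 203 and 52.2 CPM.

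The first comparison asked how the share of HuR tags on these RNAs differed between nuclear and cytoplasmic libraries of mock-treated cells. Each value is a share of its own library total. Amounts of HuR-bound RNA per fraction or treatment therefore cannot be compared. Most 3'UTR and coding sums of the secreted protein genes were lower in the nuclear than in the cytoplasmic fraction (6 of 7 and 5 of 7 called), and intronic tags of AFP and ALB were higher. Peaks were summed by gene and class, and limma with Benjamini-Hochberg adjustment over all sums called 14 of 28 tested member sums, 3 higher and 11 lower in the nucleus, against 29% of all 21245 sums, 12.8% higher and 16.2% lower. The median log2 difference, nuclear minus cytoplasmic, was -0.38 over the member sums and 0.11 over all sums. In the 3'UTR class 6 of 7 member sums were called lower (median -1.86), against 3006 of 6090 among all genes (median -0.98). In the CDS class 5 of 7 were called lower (median -1.04), against 77 of 890 (median -0.03). FGB, 1 of the 5, had no tag in the nuclear libraries. In introns 2 of 7 were called higher (median 0.72), against 1931 of 7707 (median 0.48).

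Among the carriers, ALB 3'UTR tags stood at 292.5, 427 and 434 CPM in the cytoplasmic and 81.6, 95.5 and 84.0 CPM in the nuclear libraries. The groups did not overlap, and the log2 difference was -2.10 ± 0.17 (SE; limma adjusted p = 7.31e-07). The 2 ALB 3'UTR peaks that carry no CDS label accounted for most of it, at 343 CPM in the cytoplasm and 62.9 CPM in the nucleus on average. The other 9 stood at 41.6 and 24.2 CPM. AFP coding tags stood at 648, 1043 and 821 CPM in the cytoplasm and 269.6, 291 and 234 CPM in the nucleus (log2 difference -1.63 ± 0.16, limma adjusted p = 4.46e-06). AFP 3'UTR tags were lower by a similar amount (-1.58 ± 0.19). Nearly all of them lie in the 2 peaks that also carry a CDS label, at 177 CPM in the cytoplasm and 53.2 CPM in the nucleus. The 1 AFP 3'UTR peak without a CDS label went the other way, at 1.75 and 4.30 CPM. TF, the iron carrier, had 1 coding peak, at 23.4, 31.6 and 22.1 CPM in the cytoplasm and 8.74, 11.8 and 14.5 CPM in the nucleus (-1.01 ± 0.26, limma adjusted p = 0.00955). Its 3'UTR held only 9 and 5 tags in the 2 groups of mock libraries and was not called.

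Intronic tags ran the other way. AFP intron sums were 120.2, 112 and 143 CPM in the cytoplasm and 269.6, 241 and 244 CPM in the nucleus (log2 difference 1.00 ± 0.14, limma adjusted p = 0.000134). ALB intron sums were 64.9, 61.1 and 89.6 CPM against 114, 135 and 134 CPM (0.83 ± 0.18, adjusted p = 0.00314). The AFP TE peaks, which lie in its introns, were also higher in the nucleus (0.62 ± 0.15, adjusted p = 0.0060), with 92.7 to 118 CPM against 160.3 to 174 CPM. The remaining intron differences of TF, FGA, FGB, FGG and SERPINA1 lay between 0.02 and 0.95 and were not called. Of the intronic member peaks, the 47 labelled as retained introns summed to 104 CPM per library on average in the cytoplasm and 166 in the nucleus, and the other 44 to 134 and 273 CPM.

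The fibrinogen chains, which assemble into 1 clotting protein, were alike in their 3'UTRs. FGB stood at 118, 163 and 124 CPM in the cytoplasm and 30.60, 20.002 and 28.002 CPM in the nucleus (log2 difference -2.28 ± 0.20), FGG at 28.8 ± 6.18 against 6.52 ± 3.19 CPM (mean ± SD, n = 3; -1.86 ± 0.30) and FGA at 14.9 ± 5.88 against 2.52 ± 0.52 CPM (n = 3; -1.78 ± 0.35). No 2 groups overlapped, and the limma adjusted p lay between 1.97e-06 and 0.00162. FGB coding tags were absent from all nuclear mock libraries, against 2.44 CPM in the cytoplasm, pooled over 7 tags. That is at least 2.29-fold higher than the 1.06 CPM that 3 tags over the nuclear group are worth (1.40-fold without nuclear mock library 2). This sum passed the filter, tags in at least 3 libraries, only through the cytoplasmic ones, so its call among the 14 is a description only. SERPINA1 3'UTR tags averaged 15.6 ± 4.33 and 2.10 ± 2.48 CPM (n = 3; -2.16 ± 0.42, limma adjusted p = 0.00155). Of the 14 calls, 8 held whichever of the 6 libraries was left out: 5 of the 3'UTR sums (not SERPINA1) and AFP CDS, TE and intron. The count fell to 9 without cytoplasmic mock library 2, when ALB intron (adjusted p = 0.0514) and SERPINA1 3'UTR (0.0649) were lost. ALB, FGB and TF coding sums were each lost without 2 to 4 of the libraries, with adjusted p up to 0.0783, and the call of FGG CDS (adjusted p = 0.0476) was lost without any 1 of them, with adjusted p up to 0.181. It was also lost with either other pseudocount, without the filter, with edgeR and after scaling to tags in peaks (adjusted p up to 0.0608), and held with the replicate block.

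**Figure D2:**
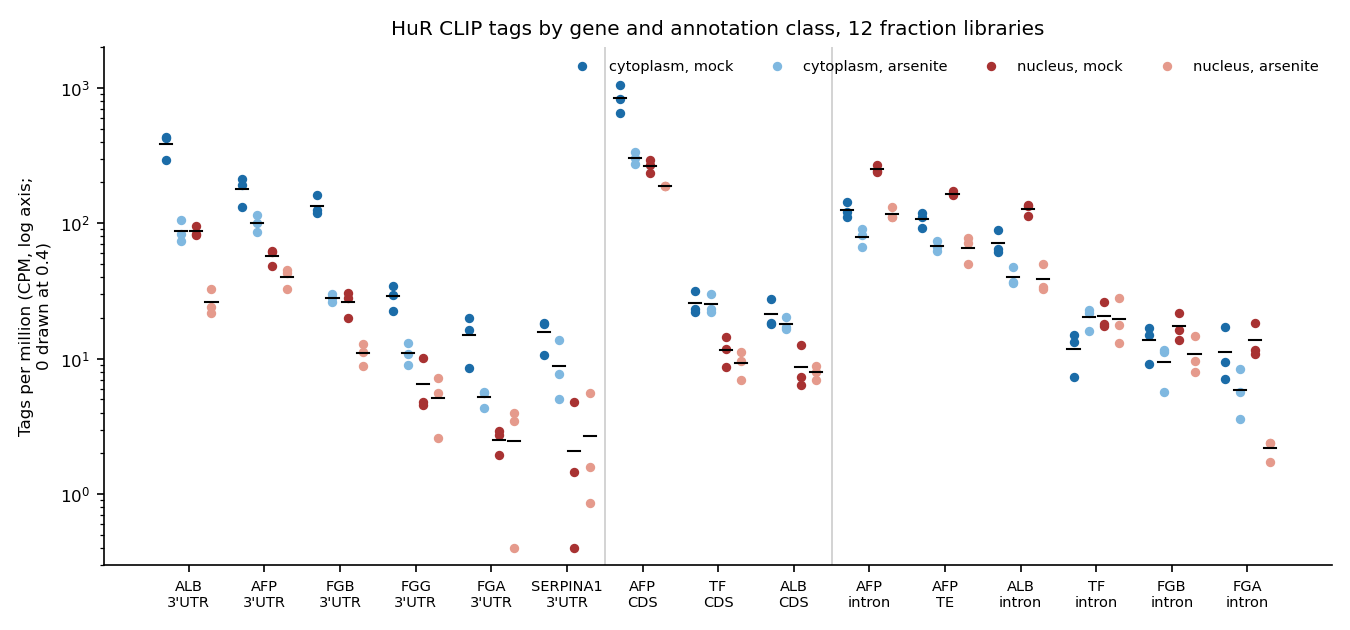
CPM (log axis) of 15 member sums by gene and class in the 12 fraction libraries; each point is a library and each bar the mean of 3. In mock-treated cells the 3'UTR and CDS sums lie higher in the cytoplasm (dark blue) than in the nucleus (dark red), and the AFP and ALB intron and AFP TE sums lie lower.

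Single peaks showed the same split of classes. limma called 18 of 157 tested member peaks in mock-treated cells, against 2.82% of all 157168 peaks, 0.53% higher and 2.29% lower. The 12 that were lower in the nucleus were 9 3'UTR and 3 AFP coding peaks, and the 6 that were higher were 3 AFP and 2 ALB intron peaks and 1 AFP TE peak. The strongest negative difference was the main ALB 3'UTR peak, at 239, 326 and 365 CPM in the cytoplasm and 40.8, 61.8 and 54.1 CPM in the nucleus (-2.52 ± 0.20, limma adjusted p = 0.000367). The strongest positive one was the AFP intron peak at chr4:73445180-73445200, with 15.7 CPM in the nucleus and 3.12 in the cytoplasm (1.73 ± 0.31, adjusted p = 0.0164). These counts rest on few libraries: without cytoplasmic mock library 2 no member peak was called, and without any other 1 between 1 (cytoplasmic mock library 3) and 22 (nuclear mock library 1).

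As a share of the members' own tags, CDS made up 44.1% ± 3.51 in the cytoplasmic and 26.4% ± 1.66 in the nuclear mock libraries (SD, n = 3), 3'UTR 37.3% ± 1.68 and 16.7% ± 0.791, and intron 11.96% ± 2.79 and 39.8% ± 1.74. Over all peaks the 3'UTR share was 42.3% ± 4.58 and 11.7% ± 0.541, and the CDS share 0.936% ± 0.126 and 0.65% ± 0.00772. AFP holds most CDS tags, and without AFP the members' CDS share was 8.29% ± 0.599 and 7.47% ± 0.937, with 3'UTR at 74.7% ± 3.64 and 35.1% ± 1.20. The first AFP coding peak alone held 48.3% ± 2.39 of AFP tags in the cytoplasm and 27.4% ± 1.33 in the nucleus. The main ALB 3'UTR peak held 64.0% ± 1.37 and 22.8% ± 3.21 of ALB tags.

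The second comparison asked how arsenite changed these tags in the cytoplasm. ALB, FGB, FGG, FGA and AFP 3'UTR tags fell, as did every class of AFP, while no TF sum was called. limma called 10 of 26 tested member sums, all lower after arsenite, against 13.3% of all 22884 sums in either direction, 6.7% higher and 6.62% lower. The median log2 difference, arsenite minus mock, was -0.64 over the member sums and 0.07 over all. For 3'UTRs alone, 5 of 7 member sums were called lower (median -1.15), against 1245 of 6685 lower and 63 higher among all genes (median -0.30). For CDS, 1 of 7 was called lower (median -0.23), against 30 of 1018 lower and 15 higher (median -0.03). For introns alone the median was -0.54 over the 7 member sums, 2 of them called lower, and 0.29 over all genes, of which 1089 of 8068 were called higher and 85 lower.

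ALB 3'UTR tags went from 292.5, 427 and 434 CPM to 74.4, 105.2 and 83.5 CPM, with no overlap (log2 difference -2.10 ± 0.18, limma adjusted p = 2.10e-06). FGB 3'UTR tags went from 135 ± 24.3 to 28.1 ± 1.88 CPM (SD, n = 3; -2.17 ± 0.18, adjusted p = 1.42e-06), FGG from 28.8 ± 6.18 to 10.98 ± 2.02 CPM (-1.22 ± 0.24) and FGA from 14.9 ± 5.88 to 5.19 ± 0.749 CPM (-1.15 ± 0.30). In AFP, coding tags went from 648, 1043 and 821 to 302, 338 and 272 CPM (-1.43 ± 0.17, adjusted p = 3.33e-05), the sharpest fall of its abundant classes. The first coding peak went from 48.3% ± 2.39 to 35.6% ± 1.86 of AFP tags. AFP 3'UTR, intron and TE sums fell by 0.80, 0.64 and 0.64 on the log2 scale, and the AFP 5'UTR peak, at 8.66 CPM in mock, fell by 1.43. ALB intron tags fell by 0.80.

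Coding tags of ALB and TF were not called. ALB coding tags stood at 18.1, 18.3 and 27.4 CPM in mock and 20.2, 17.0 and 16.7 CPM after arsenite (log2 difference -0.20 ± 0.23), and the TF coding peak at 23.4, 31.6 and 22.1 against 23.1, 30.1 and 22.3 CPM (-0.02 ± 0.22). Both pairs of groups overlapped and neither was called. TF intron sums were 14.9, 13.2 and 7.38 CPM in mock and 21.7, 15.9 and 22.95 CPM after arsenite (0.70 ± 0.26, limma adjusted p = 0.094), the 1 member intron sum with a positive difference. Of the 10 calls, ALB 3'UTR, FGB 3'UTR and AFP CDS held whichever library was left out. The count ran from 3 without cytoplasmic arsenite library 2 or 3 to 10 without cytoplasmic mock library 1, and was 4 without cytoplasmic mock library 2 or 3 or arsenite library 1. The other 7 sums then had adjusted p up to between 0.0568 for FGG 3'UTR and 0.149 for AFP intron, with the same sign. Among single peaks limma called 8 of 157, all lower, against 0.76% of all peaks, 0.24% higher and 0.52% lower: the main ALB 3'UTR peak and its neighbour at chr4:73421213-73421233, 2 FGB 3'UTR peaks, 3 AFP coding peaks and 1 AFP TE peak. Leaving out cytoplasmic mock library 1, 2 or 3 gave 5, 0 and 1 calls, and leaving out arsenite library 1, 2 or 3 gave 10, 10 and 13. The largest peak difference was the main FGB 3'UTR peak, with 74.0 CPM in mock and 12.3 CPM after arsenite (-2.37 ± 0.23, limma adjusted p = 0.00283).

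**Figure D3:**
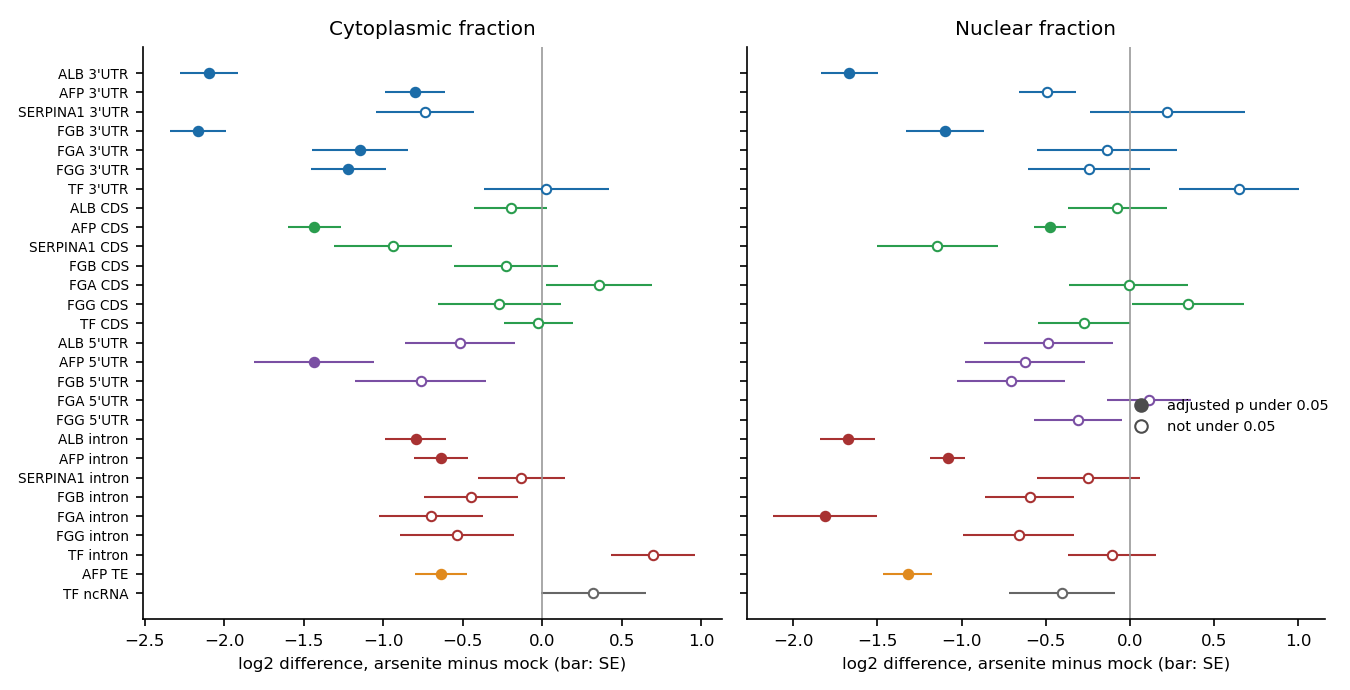
Log2 difference, arsenite minus mock, of each tested member sum by gene and class in the cytoplasmic (left) and nuclear (right) fraction; bars are the SE of the limma fit and filled points have an adjusted p under 0.05. All filled points lie below 0, with ALB and FGB 3'UTR lowest in the cytoplasm and FGA intron, ALB intron and ALB 3'UTR lowest in the nucleus.

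In the nucleus, arsenite was followed by lower intronic tags of AFP, ALB and FGA and by lower ALB and FGB 3'UTR tags, while no member sum was called higher. limma called 7 of 27 member sums, all lower, against 6.13% of all 22212 sums in either direction, 4.48% higher and 1.65% lower. The median log2 difference was -0.47 over the member sums and 0.03 over all. Among 3'UTR sums 830 of 6001 of all genes were called higher and 27 lower (median 0.39), while of the 7 member sums 2 were called lower (median -0.24). Among introns 3 of 7 member sums were called lower (median -0.66), against 214 of 8073 lower and 79 higher (median -0.11).

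AFP intron tags went from 269.6, 241 and 244 to 110.5, 111 and 132 CPM (log2 difference -1.08 ± 0.10, limma adjusted p = 1.23e-05). ALB intron tags went from 114, 135 and 134 to 32.8, 50.4 and 33.8 CPM (-1.68 ± 0.16, adjusted p = 1.58e-05), and FGA intron tags from 13.6 ± 4.09 to 2.18 ± 0.386 CPM (SD, n = 3; -1.81 ± 0.31). ALB 3'UTR tags fell as far as its introns, from 81.6, 95.5 and 84.0 to 32.8, 24.0 and 21.7 CPM (-1.67 ± 0.17, adjusted p = 2.21e-05). In none of these did the groups overlap. AFP TE tags went from 163, 174 and 160.3 to 49.6, 77.6 and 71.0 CPM (-1.32 ± 0.15) and FGB 3'UTR tags from 26.2 ± 5.52 to 10.96 ± 2.01 CPM (-1.10 ± 0.23). AFP coding tags changed less, from 269.6, 291 and 234 to 189.8, 189 and 189 CPM (-0.47 ± 0.10, adjusted p = 0.00711).

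AFP intron alone held whichever library was left out. Without nuclear arsenite library 3 it was the 1 call left, and ALB 3'UTR, ALB intron, AFP TE and FGA intron then had adjusted p between 0.0540 and 0.0727; the other calls, AFP CDS and FGB 3'UTR, were lost without 5 of the 6 libraries, with adjusted p up to 0.108. The TF differences were -0.11 ± 0.26 in introns, -0.27 ± 0.27 in its coding peak and 0.65 ± 0.36 in its 3'UTR, none of them called. Among single peaks limma called 5 of 153, all lower, against 0.186% of all peaks, 0.152% higher and 0.034% lower: 2 ALB introns, 1 AFP intron, the main AFP TE peak and the main ALB 3'UTR peak. The ALB intron peak at chr4:73406846-73406866 differed most, with 19.7 CPM in mock and 2.22 CPM after arsenite (-2.32 ± 0.31, limma adjusted p = 0.0107). No peak was called with a 4 times smaller pseudocount or without nuclear mock library 1 or nuclear arsenite library 1 or 2, and 1 and 2 were called without nuclear mock library 2 and 3.

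After arsenite 3 of 7 3'UTR and 3 of 7 CDS member sums were called lower in the nucleus than in the cytoplasm, against 652 of 6591 3'UTR and 16 of 1128 CDS sums of all genes. limma called 7 of 27 member sums between the fractions of arsenite-treated cells, 6 lower and 1 higher in the nucleus, against 4.99% of all 23772 sums, 1.62% higher and 3.38% lower. The lower ones were ALB 3'UTR (-1.67 ± 0.17, 87.7 ± 15.8 CPM in the cytoplasm and 26.2 ± 5.89 in the nucleus, n = 3), AFP 3'UTR (-1.27 ± 0.15), TF CDS (-1.26 ± 0.23), FGB 3'UTR (-1.21 ± 0.21), ALB CDS (-0.99 ± 0.23) and AFP CDS (-0.67 ± 0.09). Of the 3'UTR sums not called, TF had a positive difference (0.26 ± 0.34). AFP intron was the 1 sum called higher (0.55 ± 0.13, limma adjusted p = 0.0105). Over all genes the median 3'UTR difference moved from -0.98 in mock to -0.17 after arsenite, and over the 7 member sums from -1.86 to -1.20. ALB and AFP 3'UTR held whichever library was left out. The count was 2 without nuclear arsenite library 3 and 3 without cytoplasmic arsenite library 2; AFP CDS, FGB 3'UTR, TF CDS, ALB CDS and AFP intron were lost without 1 to 5 of the libraries, with adjusted p up to between 0.0638 and 0.210. Of 157 single peaks 3 were called, all lower in the nucleus, against 0.257% of all peaks, 0.11% higher and 0.147% lower: the main AFP 3'UTR peak, the main ALB 3'UTR peak and the ALB peak at chr4:73413576-73413596. None of them was called when any 1 library was left out.

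The interaction of fraction and treatment tested whether the fraction difference itself changed. It was called for 4 of 29 member sums, against 11% of all 27489 sums, 7.05% with a positive and 3.99% with a negative value. The nuclear minus cytoplasmic difference moved up by 0.96 ± 0.16 for AFP CDS (limma adjusted p = 7.02e-06) and by 1.07 ± 0.30 for FGB 3'UTR (adjusted p = 0.0104). It moved down for ALB intron (-0.88 ± 0.26, adjusted p = 0.0149) and AFP TE (-0.68 ± 0.22, adjusted p = 0.0345). All 7 member 3'UTR sums had a positive value (0.31 to 1.07) and all 7 intron sums a negative one (-1.11 to -0.12), and over all genes the medians were 0.63 and -0.36. AFP CDS was called whichever of the 12 libraries was left out. FGB 3'UTR was lost without nuclear mock library 2 or cytoplasmic mock library 2 (adjusted p up to 0.0624), and ALB intron and AFP TE without 4 and 9 of the libraries (up to 0.0937 and 0.194).

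In the APEX libraries AFP was the 1 member with tags in every enriched library. It stood at 91.1 to 429 CPM (median 165) in G3BP1 enriched mock and 74.7 to 586 CPM (median 200.3) in G3BP1 enriched arsenite libraries. The NES enriched libraries had 79.3, 199, 26.2 and 66.4 CPM in mock and 261, 144, 35.2 and 51.3 CPM after arsenite, and the NLS enriched libraries 62.8 to 177 CPM and 35.7 to 97.1 CPM. These groups overlapped. Over the library sets that G3BP1 and NES share (4 libraries each), AFP averaged 203 ± 186 against 92.6 ± 74.2 CPM in mock (SD, n = 3 and 4, pairs of libraries that agree within sampling noise being averaged as 1). The fit over all 8 libraries gave a log2 difference of 1.42 ± 0.64 (limma adjusted p = 0.872). After arsenite the means were 242 ± 218 and 96.5 ± 92.5 CPM (n = 3 each, counted likewise), and the fit gave 1.31 ± 0.56 (limma adjusted p = 0.156). With agreeing pairs counted once in the fit the differences were 1.37 and 1.31 (limma adjusted p = 0.280 and 0.313). The median over all genes of the same comparison was 0.20 in mock and 0.98 after arsenite. Over the tested members it was -1.14 in mock (3 genes) and 0.28 after arsenite (4 genes), so AFP does not stand for the others. Within the library sets JL0388 and JL1024 the AFP difference was 1.71 and 1.13 in mock and 1.29 and 1.33 after arsenite. Each set held 2 enriched libraries per line and treatment. In JL0388 the G3BP1 pairs and the NES arsenite pair agree within sampling noise and count as 1 sample each.

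ALB stood at 0 to 13.2 CPM in G3BP1 enriched mock, with 3 of 6 libraries at 0, and at 0 to 143 CPM in G3BP1 enriched arsenite, with 1 of 7 at 0 (log2 difference 2.47 ± 1.09, limma adjusted p = 0.388; median over all genes 0.77). Within the sets JL0361, JL0388 and JL1024 it was 1.08, 4.98 and 1.62. In JL0388 each arm is 1 pair of libraries that agree within sampling noise, so that this set compares 1 sample with 1 and has no replicate check. These levels rest on 8 and 42 tags. No member gene was called in that comparison (0 of 4; 0% of all 2798 genes; 1 of 4 at an unadjusted p under 0.05 with limma, against 11.3% of all, and 1 with edgeR). None was called between G3BP1 and NES in mock (0 of 3; 0% of all; 1 unadjusted with limma, against 5.1% of all, and 0 with edgeR) or after arsenite (0 of 4; 3.67% of all; 1 unadjusted with each tool, against 21.2% of all with limma), nor between NLS and NES in mock (0 of 5; 18.1% of all; 1 unadjusted with limma, against 27.4% of all, and 0 with edgeR). In single library sets of the last comparison TF differed by 2.86 in JL0388, on 5 NLS tags in a pair of libraries that counts as 1 sample. FGG was called by limma in JL1024 (1.17, adjusted p = 0.0223), on 3 NLS tags. Both NES libraries of the set were at 0 in each case. Both genes thus passed the filter only through NLS libraries, and these values are a description only.

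TF was the 1 member called between NLS and NES, after arsenite (1 of 5, against 6.6% of all 3576 genes, and likewise 1 of 5 against 27.7% at an unadjusted p under 0.05). It stood at 5.81 to 41.6 CPM in the 4 NLS libraries, on 16 tags in all, and at 0 in the 4 NES libraries, where 3 tags over the group are worth 2.58 CPM, against 13.7 CPM over the NLS group pooled the same way, so that it was at least 5.32-fold higher in NLS (limma adjusted p = 0.0401). TF passed the filter, tags in at least 4 libraries, only through the NLS libraries, so the call is a description only. Without NES library 4, the deepest, the bound is 2.74-fold. All 7 G3BP1 enriched arsenite libraries were also at 0 for TF. The call was lost without any 1 of the 4 NLS libraries or without NES library 3 or 4, with adjusted p up to 0.127. It was also lost within JL1024 alone (2.21, limma adjusted p = 0.153), with the larger pseudocount, with the replicate block and when values were scaled to the tags in peaks. In JL0388, where the NLS pair and the NES pair each count as 1 sample, the difference was 3.85. That scaling moves every NLS minus NES difference by -0.69 in mock and -0.73 after arsenite, and the median over all genes was 1.09 and 0.88 before it. The other 4 tested members lay between -1.59 and -0.17 after arsenite, below that median, and none was called.

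**Figure D4:**
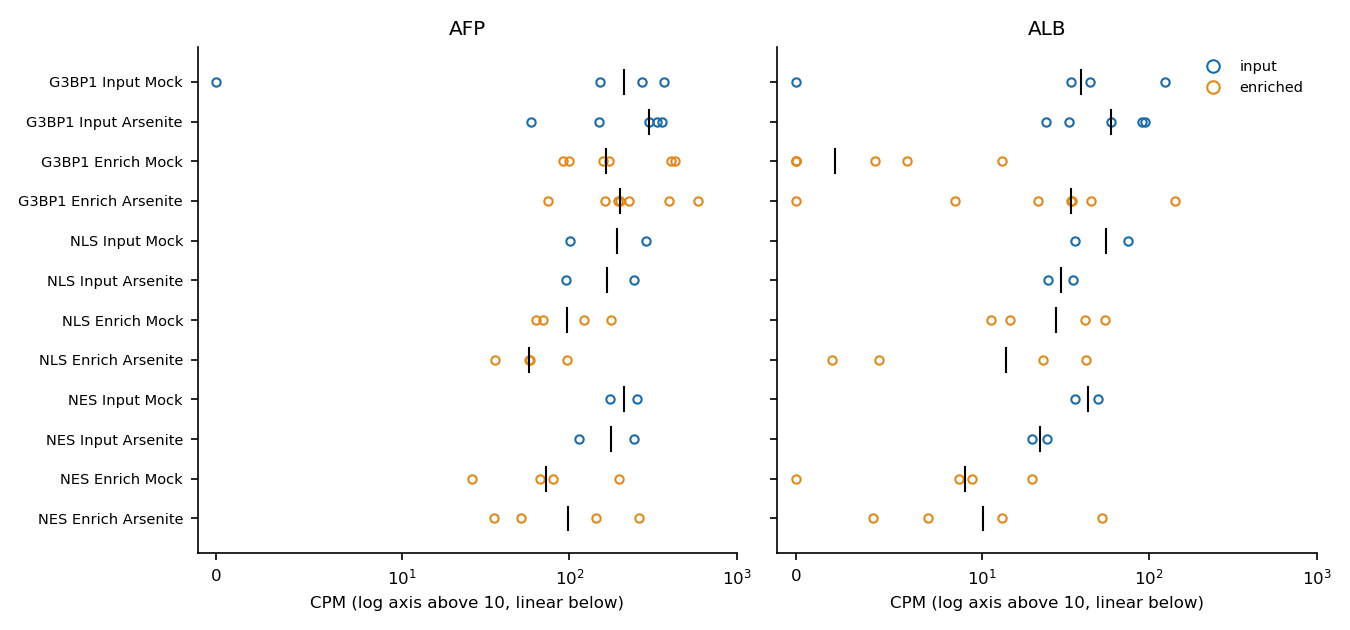
AFP and ALB in the APEX libraries, in CPM (log axis above 10, linear below); each circle is a library (blue input, orange enriched) and each black line the group median. AFP is above 0 in every enriched library, and ALB is at 0 in 3 of 6 G3BP1 enriched mock and 1 of 7 G3BP1 enriched arsenite libraries.

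In the inputs AFP stood at 0 to 367 CPM in the 4 G3BP1 mock and 58.6 to 356 CPM in the 5 G3BP1 arsenite libraries, and ALB at 0 to 123 and 24.1 to 93.8 CPM. The NLS and NES inputs lay within 95.3 to 287 CPM for AFP and 19.8 to 74.7 CPM for ALB. Mock and arsenite inputs overlapped in every line for AFP. For ALB they did not in the NLS and NES lines, where the arsenite inputs were lower. Each arm there holds 2 libraries from different sets, and the NES arsenite inputs hold 11 ALB tags. The difference was not tested, nor was the share of all genes without overlap counted. The first AFP coding peak held 36.3% of AFP tags over the NLS mock inputs (Wilson 95% interval 32.9% to 39.8%), with 43.4% and 23.6% in the 2 libraries, and 14.05% over the NLS enriched mock libraries (9.0% to 21.4%). After arsenite it held 49.0% over the NLS inputs (45.4% to 52.7%), with 25.9% and 56.1% in the 2 libraries, and 29.2% over the NLS enriched libraries (19.6% to 41.2%). Over the G3BP1 enriched libraries it held 42.9% in mock (35.3% to 50.8%) and 48.6% after arsenite (43.1% to 54.1%), and over the G3BP1 inputs 43.4% and 44.9%. Among the 3 G3BP1 enriched mock libraries with at least 20 AFP tags the share ran from 19.2% to 57.6%. The intervals cover counting error only, with tags summed over the libraries of a group.

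Other secreted liver protein genes gave a mixed picture. Of 33 further plasma protein genes, 20 had peaks. Of their 33 tested sums 4 were called higher and 7 lower in the nucleus in mock (median log2 difference 0.04). Over all sums 12.8% were called higher and 16.2% lower. In the 3'UTR class 5 of 7 were lower, against 3006 of 6090 among all genes. Among the 5 were fibronectin FN1 (-1.97 ± 0.30), angiotensinogen AGT (-1.68 ± 0.31) and complement C5 (-1.66 ± 0.21). In the cytoplasm arsenite lowered 5 of 37 and raised 2, against 6.62% lower and 6.7% higher over all sums. The 3'UTR sums of C5 (-1.92 ± 0.19) and FN1 (-1.90 ± 0.27) were again among the lower ones. In the nucleus none of 33 was called with limma (4 at an unadjusted p under 0.05, against 20.7% of all sums), against 7 of 27 for the member sums; that the lists differ was not tested. Of 8 apolipoprotein genes 5 had peaks, and nearly all their tags were APOB, the protein of very low density lipoprotein. APOB coding tags, like those of AFP, were lower in the nucleus in mock (35.5 against 173 CPM, -2.19 ± 0.21), but unlike AFP they were called higher in the nucleus after arsenite (57.8 CPM, 0.67 ± 0.17, limma adjusted p = 0.0282).

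The pattern of the summed members over the 16 groups, as centred log2 group means, was nearest to that of THRAP3, GPC3, SLC12A2, LSM14A and SERINC5 among 2569 genes with a tag in every group. Their root mean square differences were 0.42 to 0.45, against a median of 0.86 over those genes. The summed pattern is mostly that of AFP (0.17 from the sum), which holds 67.1% of the member tags; ALB, FGB and FGG were 0.72, 0.61 and 0.66 from it. GPC3, a cell surface proteoglycan also known as a hepatocellular carcinoma marker, stood at 1509 CPM in the cytoplasm and 1368 CPM in the nucleus of mock-treated cells.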

How the data were processed

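HuR-bound RNA was measured by CLIP-seq in 58 libraries. The authors deposited 1 table of signal per 20-nt peak and library. Bowtie2, SAMtools, bedtools, HOMER and build GRCh38.p14 are named in the submitters' processing notes; how peaks were called is not given in the sources used here. Each deposited signal value is a tag count divided by a total for its library: dividing by the smallest step gave whole tags for 100% of values, within 1% of a whole number. Of 395471 lines, 8257 repeats were dropped. Peak classes are those of the table, in which a 3'UTR label takes precedence over CDS.

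Values were tested as log2(value + 2.28 CPM) with limma 3.58.1 (R 4.3.3, trend), with Benjamini-Hochberg adjustment over all peaks or sums and a threshold of 0.05, for features with tags in a number of libraries no lower than the size of the smaller group. Fold changes of low features are understated on this scale. APEX comparisons used gene sums with the library set as covariate. edgeR 4.0.16 (quasi-likelihood, on recovered tags), other pseudocounts, no filter, scaling to tags in peaks, a replicate block, single library sets and leaving out each library were alternatives. Both fits were tested on simulated data. Summaries used Python 3.11.15.

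Of 32 replicate pairs tested, 5 could not be told apart by sampling noise and were averaged as 1 replicate in printed means and SDs; the fits kept both, with counting them once as an alternative. The members and gene lists were chosen with earlier results of these data known; 1 gene of a marker list is not reported here. All member genes are named; peaks with full values are those with the most tags per gene and class, and the called peak with the largest difference in each direction. Deviations of same-numbered libraries had correlations of -0.02 to 0.10 over all tested features. Counting noise in features with few tags lowers such correlations, so they cannot decide whether replicate numbers pair the libraries. The replicate block is therefore given as an alternative.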

Additional observations from a re-analysis of the deposited data

Results flagged for a closer look

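In the G3BP1 enriched arsenite group, replicate 5 stood apart for ALB at 143 CPM, against 0 to 44.8 CPM in the other libraries. It rests on 4 tags in a library with a total of 28062. The check for a library far from the others was made 16 times, for AFP and ALB in each group of at least 4 libraries. It marked only this case, where chance marks about 1 in 20.

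For 4 member sums the effect of arsenite differed between nucleus and cytoplasm by the interaction test of limma, 4 of 29 tested against 11% of all sums. The call of AFP CDS held whichever library was left out, and the other 3 were each lost without some library. The value was 0.96 for AFP CDS (adjusted p = 7.02e-06), 1.07 for FGB 3'UTR (adjusted p = 0.0104), -0.88 for ALB intron (adjusted p = 0.0149) and -0.68 for AFP TE (adjusted p = 0.0345), each as the log2 nuclear minus cytoplasmic difference after arsenite minus that in mock.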

How the results depend on the processing

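Counts of called member sums by gene and class in the fractions stayed within 1.5 times under every alternative that kept all libraries. Counts of called peaks did not: after arsenite between fractions (3) they were 5 with no filter and 7 with edgeR, for arsenite in the cytoplasm (8) 13 with the smaller pseudocount and 16 with edgeR, and for arsenite in the nucleus (5) 0 with the smaller pseudocount, 11 with no filter and 9 with edgeR. With 1 library left out, peak counts ran from 0 to 22, 0 to 0, 0 to 13 and 0 to 6 (mock fractions, arsenite fractions, cytoplasmic and nuclear arsenite), and sums from 9 to 14, 2 to 8, 3 to 10 and 1 to 6, with 1 to 5 for the interaction. For NLS against NES after arsenite (1 call, 0 to 1 with a library left out) the count was 0 with the larger pseudocount, the scaling to tags in peaks, the replicate block and JL1024 alone. In mock it was 1 in JL1024 alone (FGG). For JL0388 alone, agreeing pairs leave 1 sample in 1 or both arms, so effect sizes only are given. The other APEX counts were 0 to 0 with a library left out. The replicate block gave 19, 2, 12 and 7 peaks and 14, 7, 10, 7 and 4 sums in the order above, and ended no other count.

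Uncalled AFP and ALB differences changed sign in some settings. AFP was -0.24 for NLS against NES in mock (0.43) and -0.078 for arsenite in G3BP1 (0.25) after scaling to tags in peaks, and 0.42 in JL1024 alone for NLS against NES after arsenite (-0.63). ALB in the last comparison (-0.17) was 0.35 with edgeR, 0.12 with agreeing pairs counted once, 0.42 in JL1024 alone, and 0.49, 0.24 and 0.31 without NLS replicate 2, NLS replicate 3 and NES replicate 1; with 1 library left out it ran from -0.81 to 0.49. The causes were not tested. Depth limits the enriched libraries most: 16 of the 58 libraries hold under 10000 tags in peaks.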
